A study of Mus musculus with 10 samples.

Results

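The 8 genes described here code for transcription factors that set or keep the microglial lineage: Spi1, Irf8, Sall1, Mef2a, Mef2c, Runx1, Cebpa and Fli1. They were chosen by symbol for their known role in microglia and macrophages, and were matched to the NCBI gene identifiers of the count data. All 8 were counted in all 10 libraries, out of 46152 genes counted, and all 8 passed the filter that left 28419 genes for testing. The question put to them was whether their RNA differed between microglia of mice given GW2580 and of mice given vehicle. GW2580 is an orally given inhibitor of the kinase of CSF1R, the receptor through which CSF1 and IL-34 keep microglia alive.

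The mice were young adults of the C57BL/6J strain, with no transgene or deletion in either group. In one group, 5 were gavaged with GW2580 at 80 mg/kg/d. In the other, 5 were gavaged with the carrier alone, 0.1% Tween 80 with 0.5% hydroxymethyl propyl-cellulose, and both were treated over 8 days. Each group had 2 male and 3 female libraries. Brains were perfused and dissociated with enzyme, and cells from a Percoll gradient were enriched on magnetic beads against CD11b, so that other CD11b+ cells such as monocytes, granulocytes and macrophages of the brain's borders could be carried along.

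Microglia arise from yolk sac progenitors, and a small set of factors acts at successive steps. PU.1, coded by Spi1, is an ETS factor that opens enhancers of myeloid genes and binds many of them together with IRF8. RUNX1 acts early in blood formation and upstream of Spi1, and C/EBPα directs myeloid progenitors and, like PU.1 and RUNX1, binds regulatory regions of Csf1r. FLI1 is a second ETS factor of blood and endothelial cells, MEF2A and MEF2C bind A/T-rich sites in microglial enhancers, and SALL1 is a zinc finger repressor which in the brain's myeloid cells marks microglia.

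The libraries held 12550418 to 20854218 fragments assigned to genes with vehicle and 13228819 to 26079343 with GW2580. All 11 genes of a microglial signature list were detected, with a summed level of 14396 to 37663 CPM with vehicle and 19324 to 64808 CPM with GW2580, where CPM is the count per 1e+06 fragments of a library after its size was corrected by its TMM factor (trimmed mean of M-values). Vehicle 5 stood apart. Its 4 ependymal and choroid plexus markers summed to 25666 CPM, against 3523 or less in the other 9 libraries, its 5 lymphocyte markers to 383 CPM, and its microglial signature was the lowest of all. Vehicle 2 had the highest sum of oligodendrocyte markers, 15105 CPM, and Vehicle 1 the highest sum of monocyte and granulocyte markers, 24051 CPM. On the first principal component of 7580 genes above 20 CPM, GW2580 5 lay at -45.8, beside Vehicle 1 to 4 at -40.5 to -35.0, and Vehicle 5 lay at 77.9, beyond GW2580 1 to 4 at -5.20 to 46.4. GW2580 3, the deepest library, had the smallest TMM factor, 0.691, and GW2580 4 the largest, 1.61. For the factors and the called genes named, estimates are also given without Vehicle 5, without GW2580 3 or without each in turn. Estimates of the called genes without Vehicle 1, Vehicle 2 or GW2580 4 are not given.

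Levels can be compared between genes only per length, so CPM was divided by the kilobases of exon counted for each gene. On this scale Spi1 was the most abundant of the 8, at 335 CPM per kb with vehicle and 323 with GW2580, and Irf8 was second, at 186 and 235. Spi1 lay above Irf8 in 9 of 10 libraries, the exception being Vehicle 5. Cebpa came next, at 48.7 and 68.7 CPM per kb, and lay above each of the 5 lower genes in 10 of 10 libraries. Those 5 were Mef2c (29.0 and 37.7), Fli1 (24.3 and 33.5), Sall1 (22.5 and 32.6), Mef2a (19.6 and 31.3) and Runx1 (18.1 and 22.5 CPM per kb). The order of the 8 means was the same in both groups, but neighbours among the lower 5 changed places between libraries. Mef2c lay above Fli1 in 7 of 10 libraries and Sall1 above Mef2a in 6 of 10, whereas Mef2a lay above Runx1 in 9 of 10. The exon length covers all RefSeq transcripts of a gene, so a gene transcribed mainly from short forms is understated.

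The depth behind these values was ample, with between 1025 fragments (Fli1 in GW2580 5) and 25981 fragments (Irf8 in GW2580 3) counted on a member in 1 library. Spi1 lies on chromosome 2 of GRCm38 (91082368 to 91115759, plus strand), Irf8 on chromosome 8 (120736358 to 120756694, plus) and Sall1 also on chromosome 8 (89027242 to 89044162, minus). Mef2a lies on chromosome 7 (67231163 to 67376456, minus), as does Cebpa (35119293 to 35121928, plus). Mef2c lies on chromosome 13 (83504017 to 83667079, plus), Runx1 on chromosome 16 (92601466 to 92826074, minus) and Fli1 on chromosome 9 (32422204 to 32543432, minus). The counts are of fragments on exons without regard to strand. Only Mef2c shares exon bases with another counted gene, 464 bases or 6.11% of its exons with the antisense gene Gm52044 and 10 bases with Gm52043, and fragments there could not be given to either.

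RefSeq promoter sequence of GRCm38.p6 was matched for 6 of the 8 genes, in 12 windows of the 250 bases before a listed start. They were searched on both strands for the GAGGAA core that PU.1 prefers. This core was chosen because Spi1 RNA was the most abundant of the 8 per length and PU.1 is known to bind near other myeloid regulators. The core was present in 4 of the 12 windows, compared with 23.3% of 32851 windows of the same length. These 4 windows belong to Mef2a, Mef2c and Runx1. The window upstream of the second listed start of Runx1 shares no base with a Runx1 exon and is shown whole, chr16:92697330-92697579 on the minus strand, read 5′ to 3′ with the core, here as its reverse complement, in capitals.
Runx1 second start: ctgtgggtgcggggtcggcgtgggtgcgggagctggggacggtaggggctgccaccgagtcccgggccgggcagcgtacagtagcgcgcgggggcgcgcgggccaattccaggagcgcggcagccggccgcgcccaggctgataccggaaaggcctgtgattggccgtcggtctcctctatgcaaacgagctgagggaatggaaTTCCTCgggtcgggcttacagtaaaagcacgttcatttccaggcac
The windows of Mef2a and Mef2c overlap exons of other transcripts of these genes, so only the core and its flanks are shown. Mef2a holds it at 2 places (chr7:67372950-67372978, minus strand), and Mef2c holds it before its first listed start (chr13:83503906-83503923, plus strand) and before its second (chr13:83523464-83523481, plus strand).
Mef2a: gaaagaGAGGAAgccgaGAGGAAgggaga
Mef2c first start: tgaaatGAGGAAacttaa
Mef2c second start: ttctccGAGGAAgctgtc
None of the 12 windows held the composite element that PU.1 and IRF8 bind together (2.3% of all windows), TGTGGT as in RUNX sites (14%), TTGCNNAA as in C/EBP sites (9.56%) or TATTTNTA as in MEF2 sites (5.44%). A match of letters is a description of the sequence and not a site shown to be bound.

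Between GW2580 and vehicle, 0 of the 8 factors passed the call rule of a fold change over 2 with an unadjusted p under 0.05, where the same edgeR quasi-likelihood test called 10.7% of all genes tested (4.01% higher and 6.7% lower) and 8.27% of those above 20 CPM. At any fold change, 0 of 8 had an unadjusted p under 0.05, beside 14.7% of all genes, and the lowest Benjamini-Hochberg adjusted p among the 8 was 0.366. The estimate was above 0 for 7 of 8, beside 48.4% of all genes tested and 49% of the 7580 genes above 20 CPM. Their median log2 fold change was 0.42, beside -0.03 for all genes tested, and without GW2580 3 it was 0.11. The 8 were called in no direction under any of the alternatives tried, but with library sizes alone in place of TMM 4 of them had an unadjusted p under 0.05, a scaling under which the median of all genes moved from -0.03 to 0.23. In bulk RNA, a lower level in each cell cannot be told apart from fewer cells of the kind that expresses a gene.

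**Figure D1:**
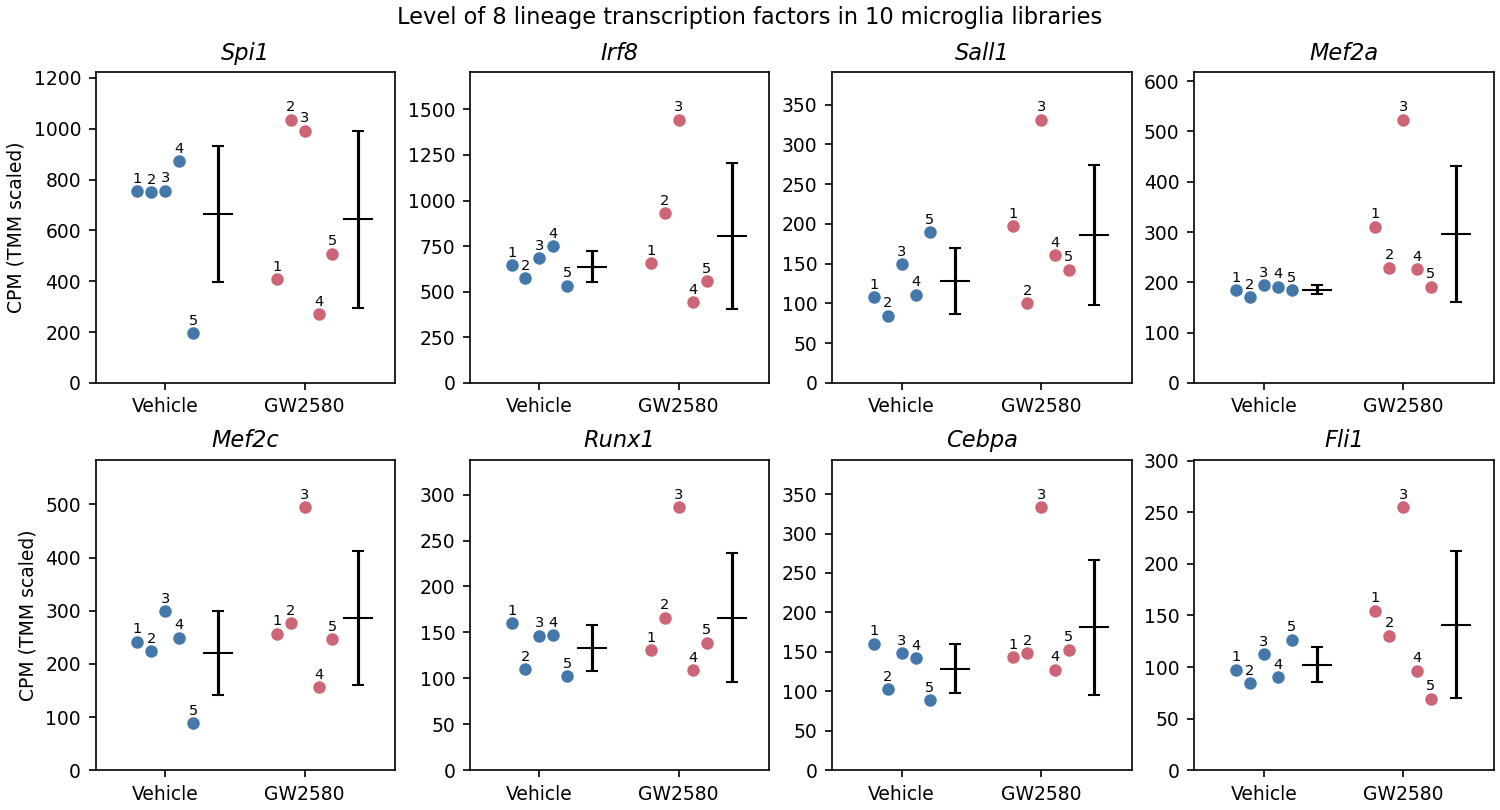
Level of each factor in CPM (vertical axis, linear, TMM scaled) in the 5 vehicle (blue) and 5 GW2580 (red) libraries, numbered by replicate. Bars give the mean and SD of each group. Vehicle 5 is the lowest point of Spi1 at 195 CPM, the vehicle points of Mef2a lie between 171 and 194 CPM, and GW2580 3 is the highest point for every gene but Spi1.

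Mef2a came nearest to a difference. Its level was 185, 171, 194, 191 and 185 CPM in Vehicle 1 to 5. In GW2580 1 to 5 it was 311, 229, 524, 226 and 191 CPM. Of the GW2580 libraries, 4 of 5 lay above all vehicle libraries, and GW2580 5 lay within their range. Vehicle libraries averaged 185 ± 8.95 CPM and GW2580 libraries 296 ± 134 CPM (SD, n = 5 each). By edgeR, this was 0.68 on the log2 scale (standard error 0.34, 95% interval -0.05 to 1.41). Its unadjusted p was 0.0669 and its adjusted p = 0.366, while a two-sided exact permutation test of the mean log2 CPM, over all ways to choose 5 of 10 libraries, gave p = 0.0238. The smallest p that this exact test can give was 0.00794. The permutation p is for a single gene and is not corrected for the 8 examined. With library sizes alone, 5 of 5 GW2580 libraries lay above all vehicle libraries and edgeR gave a log2 fold change of 0.84 (adjusted p = 0.253; unadjusted p = 0.00476, exact permutation p = 0.00794). Without GW2580 3 the log2 fold change was 0.37 (unadjusted p = 0.175, exact permutation p = 0.0238), and without Vehicle 5 it was 0.68 (unadjusted p = 0.0853, exact permutation p = 0.0794). The difference in mean log2 CPM was 0.59 among male and 0.57 among female libraries.

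Mef2c, its paralog, showed another pattern. Vehicle 1 to 4 had 242, 224, 299 and 249 CPM, and Vehicle 5 had 88.3 CPM. GW2580 1 to 5 had 257, 276, 495, 156 and 246 CPM. The groups overlapped, with 1 GW2580 library above all vehicle libraries, and the means were 220.4 ± 79.0 and 286 ± 126 CPM (SD, n = 5 each). In edgeR this was a log2 fold change of 0.38 (95% interval -0.49 to 1.24, edgeR adjusted p = 0.672, exact permutation p = 0.381). It was 0.086 without GW2580 3 and 0.17 without Vehicle 5. With library sizes alone the log2 fold change of Mef2c was 0.48 (edgeR unadjusted p = 0.149, exact permutation p = 0.0556), with 2 GW2580 libraries above all vehicle libraries. Vehicle 5 lay 2.87-fold below the mean of the other 4 vehicle libraries for Mef2c, whereas its Mef2a level was 0.997 of theirs.

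Spi1 was the only factor with an estimate below 0, and the one whose level varied most among vehicle libraries. It had 754, 751, 756 and 872 CPM in Vehicle 1 to 4 and 195 CPM in Vehicle 5, which was 4.01-fold below the mean of the other 4. In GW2580 1 to 5 it had 409, 1036, 993, 270.5 and 508 CPM. The GW2580 libraries thus lay on both sides of Vehicle 1 to 4, with 2 above all vehicle libraries and 3 between Vehicle 5 and the rest. The means were 666 ± 268 and 643 ± 349 CPM (SD, n = 5 each), for an estimate of -0.05 on the log2 scale (95% interval -1.09 to 0.99, edgeR adjusted p = 0.971, exact permutation p = 0.897). The interval spans a halving and nearly a doubling, so these 10 libraries do not bound the effect closely. The sign turned with the scaling and with the library left out, to a log2 fold change of 0.022 with library sizes alone and 0.15 without GW2580 4. Without Vehicle 5 the log2 fold change was -0.28 and the exact permutation test gave p = 0.317.

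Irf8, the partner of PU.1, ranged from 534 to 750.2 CPM with vehicle (median 645) and from 444 to 1444 CPM with GW2580 (median 655). Of the GW2580 libraries 2 lay above and 1 lay below all vehicle libraries. The means were 638 ± 85.9 and 806 ± 399 CPM (SD, n = 5 each). The estimate was 0.34 on the log2 scale (95% interval -0.49 to 1.16, edgeR adjusted p = 0.693, exact permutation p = 0.532). It was 0.022 without GW2580 3 and 0.28 without Vehicle 5. With library sizes alone the log2 fold change of Irf8 was 0.44 (edgeR unadjusted p = 0.0940, exact permutation p = 0.0556). Under that scaling 3 GW2580 libraries lay above all vehicle libraries.

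Sall1 had 108, 84.7, 149, 111 and 189.9 CPM in Vehicle 1 to 5. GW2580 1 to 5 had 197, 100.03, 331, 160.4 and 142 CPM, of which 2 lay above all vehicle libraries. Here Vehicle 5 was the highest of its group, 1.68-fold above the mean of the other 4, the opposite of its place for Spi1. The means were 128 ± 41.4 and 186 ± 88.2 CPM (SD, n = 5 each). In edgeR this was a log2 fold change of 0.54 (95% interval -0.27 to 1.34, edgeR adjusted p = 0.508, exact permutation p = 0.238). With library sizes alone it was 0.73 (unadjusted p = 0.0352, exact permutation p = 0.0873), and without GW2580 3 it was 0.23. Without Vehicle 5 it was 0.72 (edgeR unadjusted p = 0.0770, exact permutation p = 0.127).

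Cebpa had 160.3, 103, 149, 142 and 88.4 CPM in Vehicle 1 to 5. In GW2580 1 to 5 it had 143, 148, 334, 127 and 153 CPM. GW2580 3 alone lay above all vehicle libraries, and the other 4 lay within their range. The log2 fold change was 0.50 (95% interval -0.27 to 1.26, edgeR adjusted p = 0.516, exact permutation p = 0.222), and 0.16 without GW2580 3. With library sizes alone, 4 of 5 GW2580 libraries lay above all vehicle libraries and the log2 fold change was 0.61 (unadjusted p = 0.0372, exact permutation p = 0.0159). Runx1 ranged from 103 to 159.9 CPM with vehicle (median 147) and from 109 to 287 CPM with GW2580 (median 139), with a log2 fold change of 0.32 (edgeR adjusted p = 0.667, exact permutation p = 0.444) and of 0.033 without GW2580 3. Its log2 fold change with library sizes alone was 0.44 (unadjusted p = 0.0872, exact permutation p = 0.0159), again with 4 GW2580 libraries above all vehicle libraries. Fli1 ranged from 84.3 to 127 CPM with vehicle (median 97.4) and from 69.4 to 255 CPM with GW2580 (median 130.3). Its log2 fold change was 0.46 (edgeR adjusted p = 0.553, exact permutation p = 0.349), with 3 GW2580 libraries above and 1 below all vehicle libraries. It was 0.14 without GW2580 3 and 0.61 with library sizes alone (unadjusted p = 0.0418, exact permutation p = 0.0635).

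**Figure D2:**
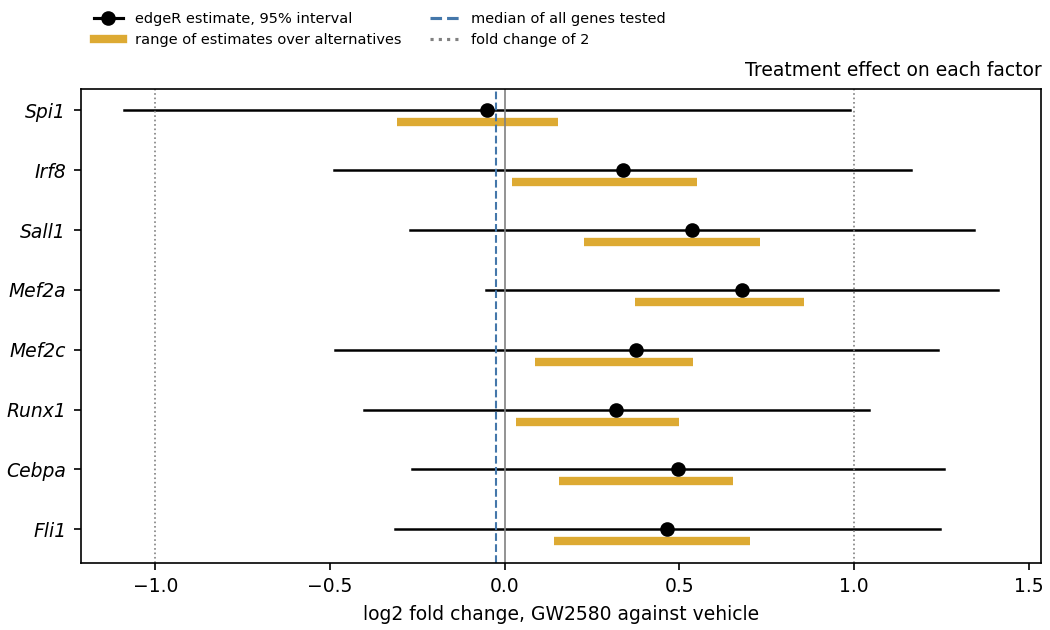
Log2 fold change of each factor, GW2580 against vehicle (horizontal axis), as the edgeR estimate with its 95% interval (black) and the range of estimates over the alternative settings (yellow bars). The interval of every factor spans 0, that of Mef2a reaching from -0.05 to 1.41, and the yellow range of Spi1 alone crosses 0. The dashed line is the median of all genes tested.

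How far the libraries of a group spread depended on the scaling. With TMM, the coefficient of variation of CPM was higher with GW2580 in 8 of 8 factors (medians 21.6% with vehicle and 47.4% with GW2580) and in 60.4% of the 7580 genes above 20 CPM. With library sizes alone it was higher with GW2580 in 3 of 8 (Sall1, Mef2a and Fli1; medians 26.7% and 23.1%) and in 48.1% of those genes. For Mef2a it was 4.83% with vehicle and 45.4% with GW2580 by TMM, and 9.77% and 27.4% with library sizes alone. For Spi1 it was 40.3% and 54.3% by TMM, but 42.4% and 35.04% with library sizes alone. GW2580 3 was the highest of all 10 libraries for 7 factors by TMM, Spi1 being the exception, and for 4 factors (Irf8, Mef2c, Runx1 and Cebpa) with library sizes alone. The same library had the highest sums of the microglial signature (64808 CPM), of border macrophage markers (269 CPM) and of early response genes, which rise when tissue is dissociated (48599.5 CPM). It had the lowest TMM factor as well, and the part of each of these in the result was not tested. No sex by treatment term had a low p among the 8 (0.514 to 0.989, edgeR interaction).

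**Figure D3:**
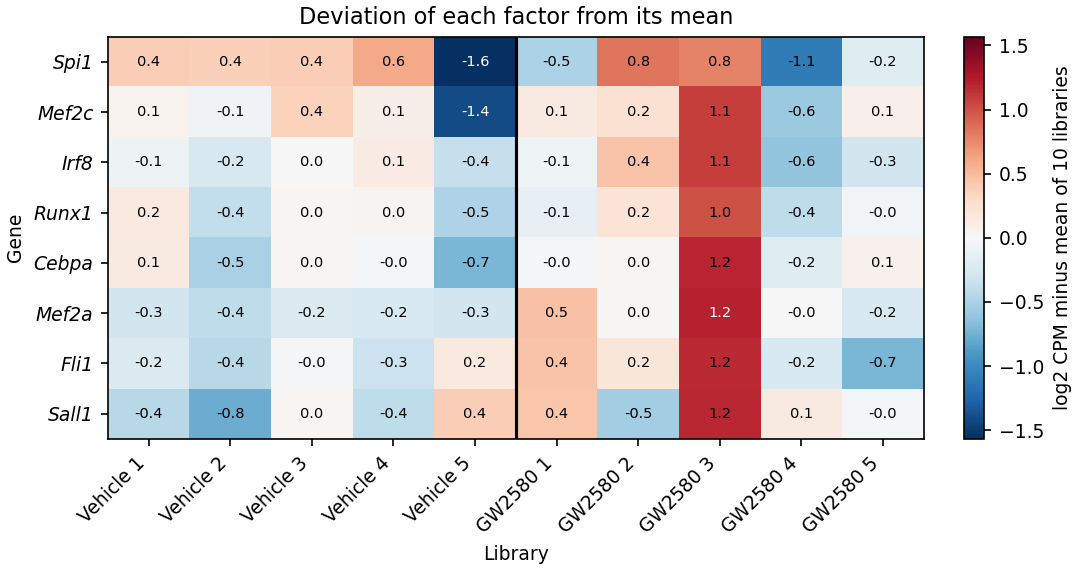
Log2 CPM of each factor minus its mean over the 10 libraries (colour and printed value), with vehicle libraries left and GW2580 libraries right of the line. Vehicle 5 is blue for Spi1 and Mef2c and pale red for Fli1 and Sall1, and GW2580 3 is red for all 8 factors.

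The ratio of 2 factors within a library does not depend on how libraries are scaled. For the 28 pairs, the log2 ratio of counts was set against treatment in an exact two-sided permutation test, and no pair passed (lowest p = 0.0635, or 0.833 adjusted over the 28 pairs). Runx1 and Cebpa kept the steadiest ratio, a mean log2 of 0.07 ± 0.09 in vehicle libraries and -0.11 ± 0.16 in GW2580 libraries (SD, n = 5 each). This was the pair of lowest p. Spi1 to Sall1 was the most variable, at 2.26 ± 1.28 and 1.72 ± 1.02. Spi1 to Mef2c stood at 1.54 ± 0.28 and 1.08 ± 0.48 (p = 0.111, exact permutation test). The ratio of Mef2a to Mef2c was -0.14 ± 0.68 with vehicle and 0.05 ± 0.38 with GW2580. The vehicle values rested on Vehicle 5, at 1.07, with Vehicle 1 to 4 at -0.63 to -0.38. All GW2580 libraries, at -0.37 to 0.54, lay above Vehicle 1 to 4 and below Vehicle 5. The tests of ratios were run with Vehicle 5 included and not without it.

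Across the 10 libraries, log2 CPM of the 8 factors varied together for most pairs. Pearson's r was above 0 for 27 of 28 pairs, with a median of 0.72 (26 of 28 and 0.63 with library sizes alone), and these points share the scaling, depth and cell makeup of each library, so r is given as a description. It was highest for Runx1 with Cebpa (0.96), then Irf8 with Runx1 (0.93) and Mef2a with Fli1 (0.88). For Spi1 with Mef2c it was 0.84, and 0.69 without Vehicle 5. Pearson's r was lowest for Spi1 with Sall1, at -0.28, and -0.17 without Vehicle 5. After the group means were subtracted, the median r was 0.73.

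**Figure D4:**
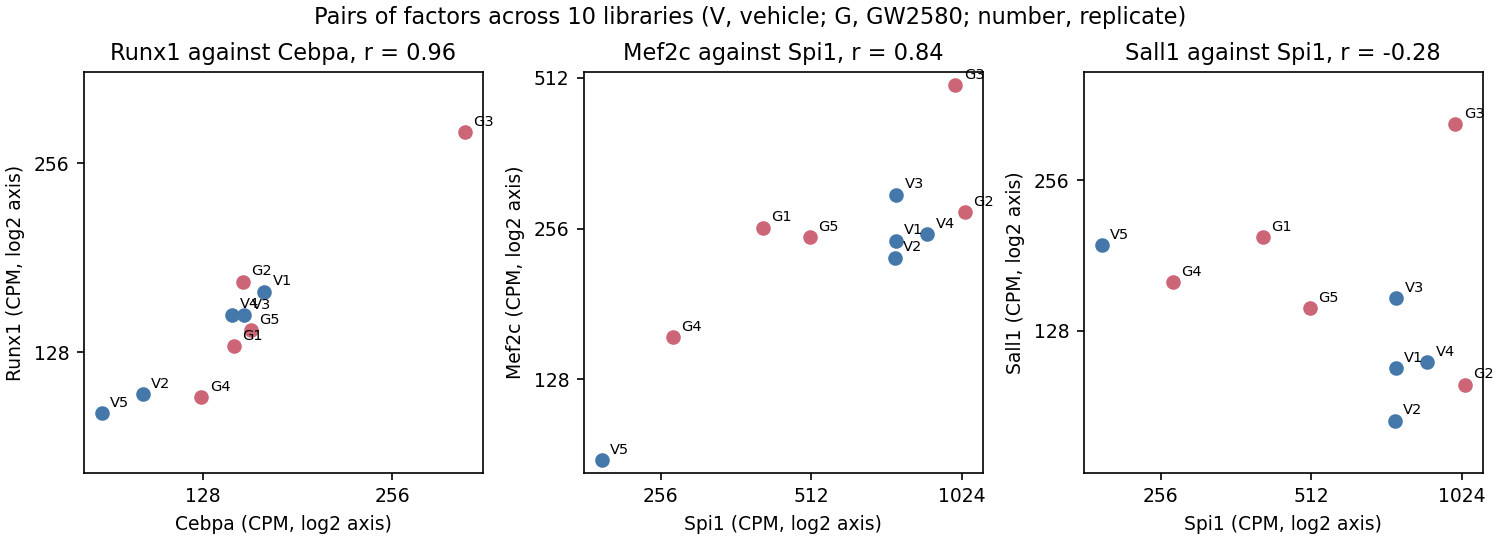
CPM of Runx1 against Cebpa, Mef2c against Spi1 and Sall1 against Spi1 in the 10 libraries, on log2 axes. Points are labelled V for vehicle (blue) or G for GW2580 (red) with the replicate number. The first pair lies near a line (r = 0.96). The second has Vehicle 5 at its lower end (r = 0.84, or 0.69 without it). The third shows no common direction (r = -0.28).

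Each factor's pattern was also set beside all other genes above 20 CPM. The gene most like Spi1 over the 10 libraries was Cebpd, a C/EBP factor (r = 0.99), followed by Cmtm3. For Irf8 they were Smpdl3b and Mfng, for Sall1 Arhgef2 and Gm52352, and for Mef2a Mtus1 and Slc38a7. For Mef2c they were Edem1 and BC035044, and for Fli1 Ints14 and Dync1li1. Runx1 was most like Grn, which codes for progranulin (r = 0.96), and then like Cebpa, whose nearest genes were Runx1 and Pag1. The summed microglial signature had r = 0.95 with Mef2c, 0.89 with Spi1 and 0.87 with Irf8, but 0.14 with Sall1. The early response genes had r = 0.97 with Irf8, and the border macrophage markers had r = 0.94 with Fli1 and 0.86 with Mef2a. Sall1 had r = -0.75 with the monocyte and granulocyte markers. The part of these marker genes in the members' levels was not tested.

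Paralogs of the 8 factors were called about as often as all genes. Of 37 paralogs in the ETS, IRF, SALL, MEF2, RUNX and C/EBP families, 33 passed the filter and 3 were called (9.09%, beside 10.7% of all genes), 1 higher and 2 lower. Etv5, an ETS factor, was the higher one, at 70.6 ± 26.8 CPM in vehicle and 150.09 ± 97.0 CPM in GW2580 libraries (SD, n = 5 each). The estimate was 1.09 on the log2 scale (unadjusted p = 0.0275, edgeR adjusted p = 0.298, exact permutation p = 0.0873), and it was not called without GW2580 3 (0.66). Spib, the ETS factor closest to PU.1 and a gene of B cells, was called lower at -2.46 (unadjusted p = 0.0205 in edgeR, exact permutation p = 0.690), with 62.8 CPM in Vehicle 5 and 0.919 to 3.57 CPM in the other 9 libraries, and stood at 0.15 without Vehicle 5. By CPM per kb averaged over both groups, the most abundant paralogs were Cebpb, a C/EBP factor of inflammatory responses (log2 fold change 0.20, edgeR adjusted p = 0.877), and Irf5, which acts downstream of Toll-like receptors (0.73, edgeR adjusted p = 0.378). Those of the other families were Etv5, which with vehicle alone lay below Elf1 (14.4 and 23.6 CPM per kb), Sall3 (0.48, adjusted p = 0.484), Mef2d (0.32, adjusted p = 0.721) and Runx2 (-0.26, adjusted p = 0.730), and the sign of Runx2 turned with library sizes alone (0.05) and without Vehicle 5 (0.14).

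Among 24 partners and cofactors of these factors, 23 were tested and 1 was called, beside 10.7% of all genes tested. The called partner was Hdac7, a class IIa histone deacetylase that binds MEF2 proteins. It stood at 18.0, 21.6, 19.0, 18.9 and 47.1 CPM in Vehicle 1 to 5. In GW2580 1 to 5 it stood at 7.50, 12.2, 7.33, 13.2 and 21.3 CPM, so that 4 of 5 lay below all vehicle libraries. The log2 fold change was -1.02 (unadjusted p = 0.0192, edgeR adjusted p = 0.280, exact permutation p = 0.0317). It was not called without Vehicle 5 (-0.66), without GW2580 3 (-0.88) or with library sizes alone (-0.69). Jun, an AP-1 factor that binds with PU.1 and is among the early response genes, was the most abundant partner per length and stood at 8470.2 ± 918 and 13509 ± 6534 CPM (SD, n = 5 each, edgeR adjusted p = 0.511).

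Of 25 other regulators of macrophages, 24 were tested and 1 was called higher, beside 4.01% of all genes. The called regulator was Tfec, a MiT factor found in macrophages. It was low in every library, at 3.68, 2.87, 2.34, 2.01 and 0.955 CPM in Vehicle 1 to 5 and 5.44, 4.61, 4.50, 4.88 and 5.42 CPM in GW2580 1 to 5. All 5 GW2580 libraries lay above all vehicle libraries. The log2 fold change was 1.07 (standard error 0.35, unadjusted p = 0.00876, edgeR adjusted p = 0.280), and the exact permutation p of 0.00794 was the smallest possible. Without Vehicle 5 it fell short of the 2-fold limit (0.87). Egr1, the early response gene of highest level per length in this list, stood at 0.74 (edgeR adjusted p = 0.446). Of the 24, 4 were called with library sizes alone, all of them higher. Under that scaling 2123 of all genes were called higher and 875 lower.

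Of 6 regulators that mark macrophages of tissues other than brain, 2 were called, both lower, beside 6.7% of all genes called lower. Id3, which in the liver acts in Kupffer cells, had a log2 fold change of -1.85 (unadjusted p = 0.00723, edgeR adjusted p = 0.280, exact permutation p = 0.0556). It stood at 65.5 ± 59.1 CPM in vehicle and 18.1 ± 10.5 CPM in GW2580 libraries (SD, n = 5 each). The highest vehicle values were 159 CPM in Vehicle 5 and 90.1 CPM in Vehicle 2, the libraries with the highest astrocyte and oligodendrocyte marker sums, and the part of those cells was not tested. Without Vehicle 5 it was -1.22 and still called. Nr1h3, which codes for the oxysterol receptor LXRα, was called at -1.36 (unadjusted p = 0.0155 in edgeR, exact permutation p = 0.0635) and was not called without Vehicle 5 (-0.63).

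Myeloid genes known to be bound by PU.1, IRF8, RUNX1 or C/EBP factors did not share a direction. Of 20 such genes 18 were tested, 10 with an estimate above 0 and 8 below, and 2 were called, both higher. Among all genes tested, 4.01% were called higher. Csf1r, the receptor that GW2580 blocks, stood at 2486, 1805, 2634, 2156 and 5324 CPM in Vehicle 1 to 5 and at 7879, 3836, 14653, 6493 and 2108 CPM in GW2580 1 to 5. GW2580 5 thus lay among the lower vehicle libraries and Vehicle 5 among the GW2580 libraries. The log2 fold change of Csf1r was 1.28 (unadjusted p = 0.0394, edgeR adjusted p = 0.318, exact permutation p = 0.0873). It was not called without GW2580 3 (0.82), but was called without Vehicle 5 (1.62, unadjusted p = 0.0175 in edgeR). Tlr4, the receptor for lipopolysaccharide, was called at 1.47 (unadjusted p = 0.00512, edgeR adjusted p = 0.280, exact permutation p = 0.0397), with 4 of 5 GW2580 libraries above all vehicle libraries, and was still called without GW2580 3 (1.14) and without Vehicle 5 (1.28). C1qb, a complement subunit and the most abundant of these genes per length, had an estimate of -0.88 (edgeR adjusted p = 0.516). Aif1 was listed at 0 in all libraries and Laptm5 had 5 fragments in all, although both are usually abundant in microglia. Of the 11 microglial signature genes, 1 was called, Cx3cr1, the fractalkine receptor (1.14, unadjusted p = 0.0278, edgeR adjusted p = 0.298, exact permutation p = 0.0238), and it was not called without GW2580 3 (0.75) or without Vehicle 5 (1.10). Markers of other cells mostly had estimates lower with GW2580. All tested were lower for astrocytes (6, 0 called), oligodendrocytes (5, 3 called), ependyma and choroid plexus (4, 4 called) and lymphocytes (5, 3 called). So were 7 of 8 neuron (2 called) and 6 of 8 monocyte and granulocyte markers (0 called). Median sums with vehicle and GW2580 were 196 and 173 CPM for astrocytes, 1733 and 718 for ependyma and choroid plexus. They were 74.5 and 28.3 CPM for lymphocytes and 68.7 and 66.8 for neurons. For oligodendrocytes (224 and 402 CPM) and monocytes and granulocytes (2773 and 3141 CPM) the median was higher with GW2580. Oligodendrocyte sums were 15105 CPM in Vehicle 2 and 3229 CPM in Vehicle 5. Of all genes, 6.7% were called lower. Border macrophage markers lay higher in 4 of 5 (1 called higher, beside 4.01% of all genes) and endothelial markers in 3 of 5 (0 called). Without Vehicle 5, the markers called lower were 1 oligodendrocyte, 2 ependymal, 1 lymphocyte, 2 neuron and 1 monocyte and granulocyte marker. Of border macrophage markers, 2 were then called higher and 1 lower. In that fit 1739 of 28120 genes were called higher and 1894 lower. The lymphocyte markers then had a median log2 fold change of -0.08, with 2 of 5 above 0.

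**Figure D5:**
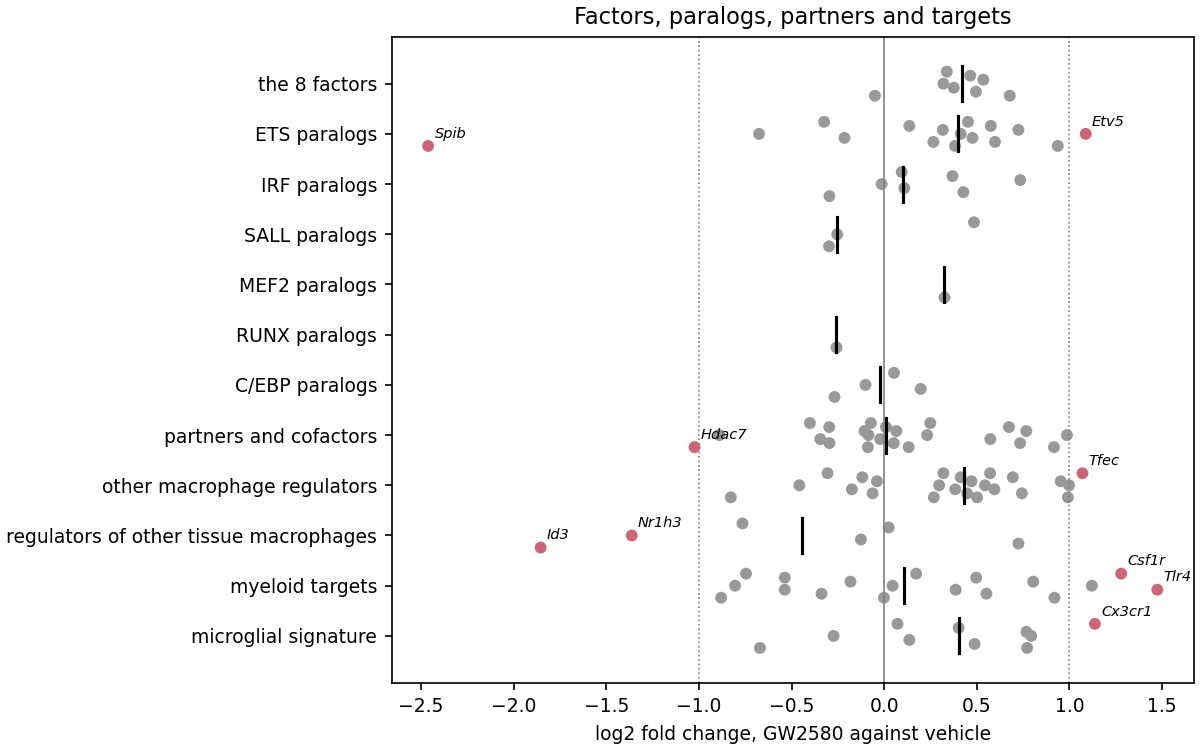
Log2 fold change, GW2580 against vehicle (horizontal axis), of tested genes among the 8 factors, their paralogs, partners, other regulators, targets and the microglial signature (rows). Red points passed the call rule and are named, grey points did not, and black bars are the median of each list, over all its tested genes. The 8 factors have a median of 0.42 and no red point, and Spib at -2.46 is the farthest point.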

How the data were processed

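Microglial RNA of 10 libraries, 5 per group, was analysed. After trimming, the authors mapped read pairs to GRCm38 by STAR and counted fragments of unique position on RefSeq exons, ignoring strand. The deposited values are raw counts, and the file headers name featureCounts 1.6.3. The authors' files also give gene length in bases and, as counts, the fragments in each assignment class. Fragments on no exon made up 38.4 to 60.1% of records, were left out of library sizes, and differed between libraries. Reads carried no molecular identifiers and so are not independent molecules, and tests rest on the spread between libraries. Nothing in the labels says that a library pools mice.

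Genes that exceeded 1 CPM in 3 or more libraries were scaled by TMM and tested with edgeR 4.0.16 (R 4.3.3), treatment being the only term, and log2 CPM used a prior count of 2. The test was tested on simulated counts. DESeq2 1.42.0 and limma 3.58.1 served as alternatives. Within-library ratios, the share of records on no exon as a covariate, permutation tests with library sizes alone or without a library, and spread and correlation with library sizes alone were added after seeing the data. The 8 members and all lists were chosen with earlier results of these data known. Besides the members, the text names from each list of regulators or targets the genes that passed the call rule (at most 3 per direction) and the gene of highest CPM per kb, and the 2 genes most like each member. Of these, 2 genes are not reported here. Lists of other cell types are given as counts of genes and, for some lists, as sums. All 187 list symbols matched. Replicate numbers were not used as pairs in the main fit. After group means were subtracted, same-numbered libraries correlated at -0.39 to 0.13. Libraries of different number were not compared in this way, so whether the numbers mark pairs is not settled.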

Additional observations from a re-analysis of the deposited data

Results flagged for a closer look

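In groups of 5 libraries, a library was singled out where its gap to the nearest other library exceeded 0.71 of the group's range (Dixon's test). Of 16 groups examined, 2 were singled out, and chance alone would do so in about 1 in 20. Spi1 in Vehicle 5 was the lowest of its group at 195 CPM, with the nearest vehicle library at 751 CPM and a gap of 0.820 of the range. Vehicle 5 also had the lowest microglial signature (14396 CPM) and the highest ependymal and choroid plexus sum (25666 CPM), and the part of these in the Spi1 level was not tested. Cebpa in GW2580 3 was the highest of its group at 334 CPM, with the nearest GW2580 library at 153 CPM and a gap of 0.877 of the range. With library sizes alone the same library had 230.4 CPM of Cebpa and GW2580 4 had 203 CPM.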

How the results depend on the processing

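No member was called in any setting. With an unadjusted p under 0.05 there were 4 members with library sizes alone (Sall1, Mef2a, Cebpa and Fli1), 1 in DESeq2 (Mef2a), 1 with the percent of records on no exon as a covariate (Mef2a), and 0 to 1 when single libraries were left out (Mef2a without GW2580 4 or without GW2580 5). The estimate for Spi1 changed sign, to 0.022 with library sizes alone, 0.032 with the length trend removed, 0.15 with the no-exon covariate, 0.07 without Vehicle 4, 0.08 without GW2580 1 and 0.15 without GW2580 4, the leave-one-out fits ranging from -0.29 to 0.15. The members' median ranged from 0.11 (without GW2580 3) to 0.56 over the leave-one-out fits. With the glial and neuronal markers as a covariate it was 0.27, with Mef2c at 0.17 and Spi1 at -0.26. Of 28419 genes tested 3046 were called, against 4802 of 44086 with no filter and 6057 of 27215 without Vehicle 5 and GW2580 5. The stricter cutoff of p under 0.01 called 928 of 28419 genes, and the fit with the no-exon covariate 1181. The range when single libraries were left out was 1684 (without GW2580 1) to 4848 (without GW2580 5). An adjusted p under 0.05 gave 0 genes in edgeR, where 4186 had an unadjusted p under 0.05, and 177 in DESeq2, but 4844 in edgeR without Vehicle 5 and GW2580 5, none of them a member. The calls split into 1141 higher and 1905 lower, and with library sizes alone into 2123 and 875. The fit with the replicate block called 2554 genes and 0 members. With no filter more genes were tested, and p under 0.01 is a stricter cutoff in the same fit. The cause of the other changes was not tested. The 5 libraries per group leave intervals of the log2 fold changes that reach 1.09 below 0 or 1.41 above it, so changes near 2-fold may be missed.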

Other observations

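Class IIa histone deacetylases and kinases that act on MEF2 proteins were looked at singly after their values were seen. Hdac9, a class IIa histone deacetylase, stood at 44.8, 30.9, 40.7, 41.5 and 28.8 CPM in Vehicle 1 to 5 and at 71.8, 47.8, 59.2, 48.9 and 49.9 CPM in GW2580 1 to 5. All 5 GW2580 libraries lay above all vehicle libraries, and the exact permutation p was 0.00794, the smallest possible. The edgeR log2 fold change was 0.57 (adjusted p = 0.347), so it did not pass the call rule. Hdac7, of the same class, had an estimate of the opposite sign (-1.02). Hdac4 stood at -0.07 and Hdac5 at 0.07 (edgeR adjusted p = 0.925 and adjusted p = 0.963). Mapk7, the kinase ERK5, stood at 0.99 (edgeR adjusted p = 0.280) and Mapk14, the kinase p38α, at 0.92 (edgeR adjusted p = 0.281), both below the 2-fold limit. Both were called higher with library sizes alone (1.14 and 1.12) and without Vehicle 5 (1.058 and 1.065), and neither without GW2580 3 (0.61 and 0.64).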
